A study of Homo sapiens with 26 samples.

Results

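The ISG15 system of HCT116 cells, a human colorectal cancer line, is described here across loss and gain of ZBTB24 and loss of DNMT3B. Its 7 genes were chosen by name, with earlier results of these data known, among 26313 gene symbols of the assembled annotation: ISG15, UBA7, UBE2L6, HERC5, HERC6, USP18 and ISG20. The expression tables listed all 7 for the DNMT3B knockout, 5 for the ZBTB24 knockdown and 0 for added FLAG-ZBTB24. ISG15 is a ubiquitin-like protein that interferon induces, and it is joined to other proteins by an enzyme chain like that of ubiquitin. UBA7 activates it (E1), UBE2L6 carries it (E2), HERC5 is the main human ligase (E3) and HERC6 is a close relative of HERC5. USP18 removes ISG15 from its targets and also dampens signalling at the type I interferon receptor. ISG20 is not part of the chain: it is an interferon-induced RNA exonuclease with a similar name.

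RNA-seq covered 12 libraries, all from HCT116 or a line made from it. The knockdown set 3 libraries with shZBTB24, a hairpin against ZBTB24, against 3 with shNT, a hairpin with no target. Both hairpin groups were made by lentiviral infection and puromycin selection, and no label says that their libraries came from separate cultures, so the deposited p-values measure a spread between libraries that may be technical. The gain-of-function set held 2 libraries with FLAG-ZBTB24 (lines 5 and 11) and 2 with the FLAG tag alone, each line a single-cell clone selected in puromycin, so clone and group cannot be told apart. The knockout set had 1 library of HCT116 3BKO, a genetic knockout of DNMT3B, and 1 wild-type library with neither tag nor hairpin, so it has no replicate check. Binding came from 3 FLAG-ZBTB24, 2 FLAG-DNMT3B and 2 FLAG-only ChIP-seq libraries with their inputs, deposited as 1 merged peak list for each of the 2 factors.

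Each expression value below is 1 pooled FPKM per group, that is, fragments per kilobase of transcript and per sequenced fragment total. Values per library were not used here, so levels carry no SD, their depth is unknown, and neighbours in an order of levels cannot be compared with any spread. In such bulk RNA, fewer expressing cells and less RNA per cell cannot be told apart. A locus passed the threshold where its deposited q was under 0.05. The tables list loci by size of change: the smallest absolute log2 fold change was 0.50 for the knockdown and FLAG-ZBTB24. Every row with the knockout label was at least 2-fold higher. The knockdown rows are also limited in p: the largest deposited Cufflinks p was 0.0549, and 1907 of the 1965 loci were under 0.05. In the FLAG-ZBTB24 and knockout rows p reached 0.839 and 0.775. For a gene without a row, no change, a filter and no test look alike.

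The targeted genes could be checked in 1 of the 3 comparisons. The locus of ZBTB24, which also holds MICAL1, rose from 17.8 FPKM with the tag alone to 155 with FLAG-ZBTB24 (q = 0.0192), per the authors' deposited table. ZBTB24 had no row for the knockdown, and DNMT3B none under the knockout label. The knockout table also holds 1112 rows, all lower than wild type, with DNMT3BKOshZB as the second group, a name that fits none of the samples used here, and DNMT3B is 1 of them. There the authors' deposited table gives DNMT3B 21.1 FPKM in wild type and 6.46 in the second group (q = 0.676), and whether this value is of the knockout library is unknown. The cell type could be checked only in part. Among 9 epithelial markers, 2 were listed for the knockdown: CDX2 rose and CDH1 fell (6.90 to 18.8 and 46.3 to 23.2 FPKM, both q = 0.00493) per the authors' deposited table. For the knockout 1 was listed, CLDN3, which the authors' deposited table gives at 10.2 and 27.4 FPKM (q = 0.694). Under the unmatched label 5 of the 9 were listed, KRT18, EPCAM, KRT8 and again CDX2 and CDH1. All were lower than wild type and 0 had a q under 0.05, with CDH1 at 27.3 and 6.10 FPKM (q = 0.267) per the authors' deposited table. Of 6 blood cell and 5 fibroblast markers, 0 were listed for the knockdown and 1 each for the knockout, CD68 with 17.5 and 39.3 FPKM (q = 0.984) and PDGFRB with 0.0718 and 0.964 (q = 0.56), per the authors' deposited table. For FLAG-ZBTB24, CDH1 and CD68 were the markers listed. The authors' deposited table gives CDH1 29.2 FPKM with the tag alone and 42.5 with FLAG-ZBTB24, and CD68 18.0 and 3.41 (both q = 0.967). The part of these markers in the results below was not tested.

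Promoter sequence is shown first because many interferon-induced genes carry an interferon-stimulated response element near their start. RefSeq promoters (GRCh38.p14, 250 bases before to 50 after a start) were matched for 5 of the 7 genes, with 2 starts for UBE2L6. UBA7 and USP18 had no entry. The element was searched as GAAANNGAAA on both strands, and 3.57% of all 35116 promoters held it. It was found in the promoters of 3 of the 5 genes, ISG15, HERC5 and ISG20, and not in those windows of HERC6 or UBE2L6. The 150 bases before the start are printed for the 3 genes with a match, and for HERC6 as a member without one that rose with the knockdown. They run 5′ to 3′ on the strand of the gene, and capitals mark the matches. All 4 genes lie on the plus strand, at chr1:1013347-1013496 for ISG15, chr4:88456969-88457118 for HERC5, chr15:88638866-88639015 for ISG20 and chr4:88378702-88378851 for HERC6.
ISG15: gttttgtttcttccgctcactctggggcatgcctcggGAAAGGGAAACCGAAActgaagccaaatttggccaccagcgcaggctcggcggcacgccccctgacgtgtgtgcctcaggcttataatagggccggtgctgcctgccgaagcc
HERC5: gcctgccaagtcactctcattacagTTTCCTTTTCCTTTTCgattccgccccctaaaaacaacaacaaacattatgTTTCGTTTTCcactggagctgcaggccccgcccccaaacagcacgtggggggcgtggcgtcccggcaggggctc
ISG20: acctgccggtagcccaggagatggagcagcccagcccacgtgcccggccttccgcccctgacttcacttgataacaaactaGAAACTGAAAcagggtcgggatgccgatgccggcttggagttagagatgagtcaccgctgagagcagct
HERC6: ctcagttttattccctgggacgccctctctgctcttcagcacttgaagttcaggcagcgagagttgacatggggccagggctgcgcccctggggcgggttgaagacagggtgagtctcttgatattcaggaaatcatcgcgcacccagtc

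The ISG15 promoter held 2 overlapping matches, at -113 to -104 and -107 to -98 from the start. HERC5 held 3 matches on the opposite strand, at -125 to -116, -119 to -110 and -74 to -65, of which the first 2 overlap. ISG20 held 1 match, at -69 to -60. A gamma-activated site, searched as TTCNNNGAA on both strands (7.66% of all promoters), had 0 matches in the 6 promoters. The ZBTB24 core motif, searched as CAGGACCT on both strands (1.56% of all promoters), also had 0 matches there. A match or its absence in such a window is a description of the letters only. The dinucleotide CG, the site that DNA methyltransferases act on, occurred 20 times in the ISG15 promoter, 21 in HERC5, 16 in HERC6, 15 in ISG20 and 32 and 41 in the pair of UBE2L6 promoters, against a median of 14 over all promoters (quartiles 4 and 28). The UBE2L6 promoters thus lay above the upper quartile and the others within the quartiles.

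After knockdown of ZBTB24, the modifier itself, its E2, its protease and the HERC5 relative HERC6 rose. Of the 5 listed members all had higher values, 4 of them past the threshold, while 12.2% of all 1965 listed loci passed the threshold as rises. Of all gene symbols in the annotation, 4.44% were listed as higher. UBA7 and ISG20 were not listed.

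For ISG15 the authors' deposited table gave 224 FPKM with shNT and 587 with shZBTB24. That is a 2.62-fold rise (log2 fold change 1.39, q = 0.00493), the largest of the 5 members in fold and in added FPKM. Its q is the smallest in the table, and 166 loci shared the smallest p of Cufflinks, 5e-05. With shZBTB24, ISG15 had the 24th highest level of the 1965 listed loci, while by fold change it stood at place 138. Next to it in the order of fold changes, the authors' deposited table had LOC101927755 (1.40) and TEX261 (1.39) above, and the protease gene KLK6 (1.39) and the zinc finger gene ZNF124 (1.39) below.

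Along the conjugation chain, the authors' deposited table gave UBE2L6 19.1 FPKM with shNT and 36.2 with shZBTB24 (1.89-fold, log2 fold change 0.92, q = 0.0164). Its rise stayed under 2-fold, although it passed the threshold. HERC5, the ligase, had 5.59 and 8.17 FPKM per the authors' deposited table (0.55 on the log2 scale, q = 0.284). This change was close to the smallest that is listed, and it did not pass. HERC6 had 2.70 and 6.62 FPKM per the authors' deposited table, a 2.45-fold rise (log2 fold change 1.29, q = 0.00493). The protease USP18 had 3.02 and 7.18 FPKM per the authors' deposited table, a 2.38-fold rise (log2 fold change 1.25, q = 0.00823). The 3 members that rose at least 2-fold were thus the modifier, HERC6 and the enzyme that takes the modifier off. Over the 5 listed members the median log2 fold change was 1.25, and over all 1081 loci listed as higher it was 0.79.

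In the DNMT3B knockout library, all 7 members were listed as higher than in wild type. All 2243 rows with the knockout label are higher, so this label fixes the direction of each member, list gene and neighbour found there, and the size of the change is what varies. The 1112 rows of the unmatched label, all lower, hold 0 members. Under the knockout label each of the 7 members was at least 4-fold higher, a limit set after the values were seen. So were 52.8% of the 2243 loci with that label. Of all gene symbols in the annotation, 9.08% were listed as higher there. The median log2 fold change was 4.01 over the members and 2.12 over all of these loci. Only ISG15 had a q under 0.05, which 0.312% of the loci had, and with 1 library per group this q compares those libraries and not the genotypes.

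For the modifier, the authors' deposited table gave 35.1 FPKM in the wild-type library and 867 in the knockout (24.7-fold, log2 fold change 4.63, q = 0.0393). In the knockout it had the 10th highest level of the 2243 loci, and by fold change it stood at place 398. Beside it in that order, the authors' deposited table had TF (4.63) and HVCN1 (4.63) above and CIART (4.63) and NECAB2 (4.62) below. All 4 were under 1 FPKM in wild type, so ISG15 stood apart from them in level and not in fold.

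Of the enzymes, the E1 gene had the largest fold as deposited. The locus of UBA7, which also holds the microRNA gene MIR5193 on the same strand, had 0.341 FPKM in wild type and 13.7 after knockout per the authors' deposited table (40.3-fold, log2 fold change 5.33, q = 0.188). Reads of MIR5193 cannot be told apart from those of UBA7 in this value, and the fold rests on a wild-type level below 1 FPKM. With 1 FPKM added to both values its log2 fold change was 3.46, below the 3.92 of USP18, so its first place depends on low values. For UBE2L6, the authors' deposited table gave 17.4 and 138 FPKM (7.96-fold, log2 fold change 2.99, q = 0.208). HERC5 had 4.42 and 41.3 FPKM per the authors' deposited table (9.34-fold, log2 fold change 3.22, q = 0.188). HERC6 had 1.85 and 29.9 FPKM per the authors' deposited table (16.2-fold, log2 fold change 4.01, q = 0.411). HERC6 was the lower of this pair in each of the 4 groups. USP18 had 1.31 and 34.1 FPKM per the authors' deposited table (26.0-fold, log2 fold change 4.70, q = 0.296). Its deposited fold was slightly above that of ISG15, at a level 25.4 times lower in the knockout. With 0.1 FPKM added to both values the order was reversed, at 4.60 for USP18 and 4.62 for ISG15 on the log2 scale. ISG20, the exonuclease outside the chain, had 6.87 and 33.0 FPKM per the authors' deposited table (4.80-fold, log2 fold change 2.26, q = 0.694). It had the smallest fold of the 7 members. It was also the member that missed an unadjusted Cufflinks p under 0.05, which the other 6 reached, as did 210 of all 2243 loci. With 1 library per group this p, like the q, compares those libraries only.

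**Figure D1:**
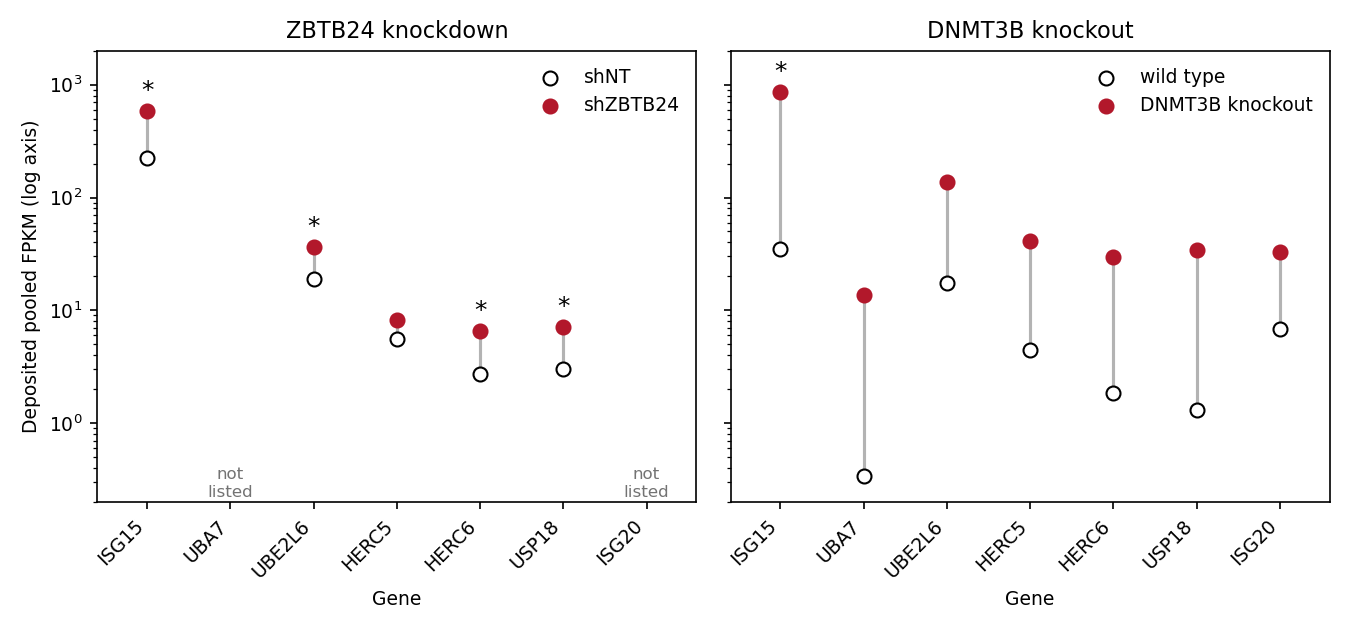
Pooled FPKM of the 7 genes on a log axis as the authors deposited them, with open circles for the first group and filled circles for the second; each pair is joined by a line and an asterisk marks a deposited q under 0.05. Among the genes with a value, ISG15 is the highest in all 4 groups, from 35.1 FPKM in wild type to 867 in the knockout, and UBE2L6 comes next in each. UBA7 and ISG20 have no value in the hairpin groups.

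By level, ISG15 came first in each of the 4 groups and UBE2L6 followed in each, among the members with a value there. FPKM is per length of transcript, so levels of different genes are set side by side here as a description. Values of UBA7, HERC6 and USP18 may include reads from elsewhere, as stated where their loci are described. Ranks and ratios that involve them carry that limit. HERC5 came next in the knockout, and with shNT and shZBTB24 among the 5 members that have values there. In wild type ISG20 stood between UBE2L6 and HERC5. Its place in the hairpin groups is unknown. The lowest places were held by HERC6 in both hairpin groups, where UBA7 and ISG20 had no value, and by UBA7 in wild type and knockout. ISG15 had 11.7 times the FPKM of UBE2L6 with shNT and 16.2 times with shZBTB24, and 2.02 times in wild type and 6.26 times in the knockout. Against HERC5 these ratios were 40.0, 71.9, 7.93 and 21.0, in the same order. Within each comparison the ratio of the modifier to its carrier and to its ligase was thus higher in the second group. Against the E1 gene UBA7 it went the other way, from 103 in wild type to 63.2 in the knockout. The wild-type level of UBA7 was 0.341 FPKM, and the knockdown gave no value for it. Against USP18 the ratio changed little within a comparison, from 74.1 to 81.8 with the knockdown and from 26.7 to 25.4 with the knockout.

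Between the control groups of these comparisons, the modifier had the largest ratio of the 5 members with values in both. The level of ISG15 with shNT was 6.38 times that in wild type, by values of the authors' deposited tables, whereas UBE2L6 (1.10), HERC5 (1.26), HERC6 (1.46) and USP18 (2.30) had lower ratios. Among the 437 loci found in both tables, under either label of the knockout table, with at least 1 FPKM in wild type, the median ratio was 1.08 and ISG15 stood at place 16. Whether the tables were normalized together is unknown, and the groups differ in lentiviral infection and puromycin selection, so this is a description of deposited levels.

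There were 380 loci listed both for the knockdown and, under the knockout label, for DNMT3B loss, and 5 of them were members. The loci nearest to each member in both fold changes were found by Euclidean distance over these 2 comparisons. USP18 was the nearest of all loci to ISG15, and ISG15 the nearest to USP18, at a distance of 0.158 on the log2 scale. This closeness depends on the low levels of USP18. With 1 FPKM added, ISG15 lay at 1.39 for the knockdown and 4.59 for the knockout, and USP18 at 1.03 and 3.92. The distances given here are of the deposited values only. After USP18, the loci nearest to ISG15 were KRTAP3-1 (distance 0.338), the transcription factor gene BATF2 (0.365), the double-stranded RNA sensor IFIH1 (0.484) and APOL6 (0.528). Nearest to HERC6 were BATF2 (0.278), GUSBP1 (0.382), the interferon transcription factor gene IRF9 (0.460), TDRD5 (0.515) and the adhesion gene ICAM1 (0.546). HERC5 lay nearest to the peptide transporter gene TAP1 (0.147), CSF1 (0.237), the locus of IFITM1 and IFITM2 (0.254), UBE2L6 (0.439) and TRIM21 (0.517). For UBE2L6 the order was the locus of IFITM1 and IFITM2 (0.220), GBP3 (0.278), TDRD7 (0.309), TAP1 (0.339) and ZNF214 (0.340). For USP18 the loci after ISG15 were KRTAP3-1 (0.363), APOL6 (0.372), BATF2 (0.464) and HPSE2 (0.472). Of the loci named here, APOL6, GBP3, GUSBP1, HPSE2, KRTAP3-1, TDRD5 and ZNF214 were below 1 FPKM in wild type.

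**Figure D2:**
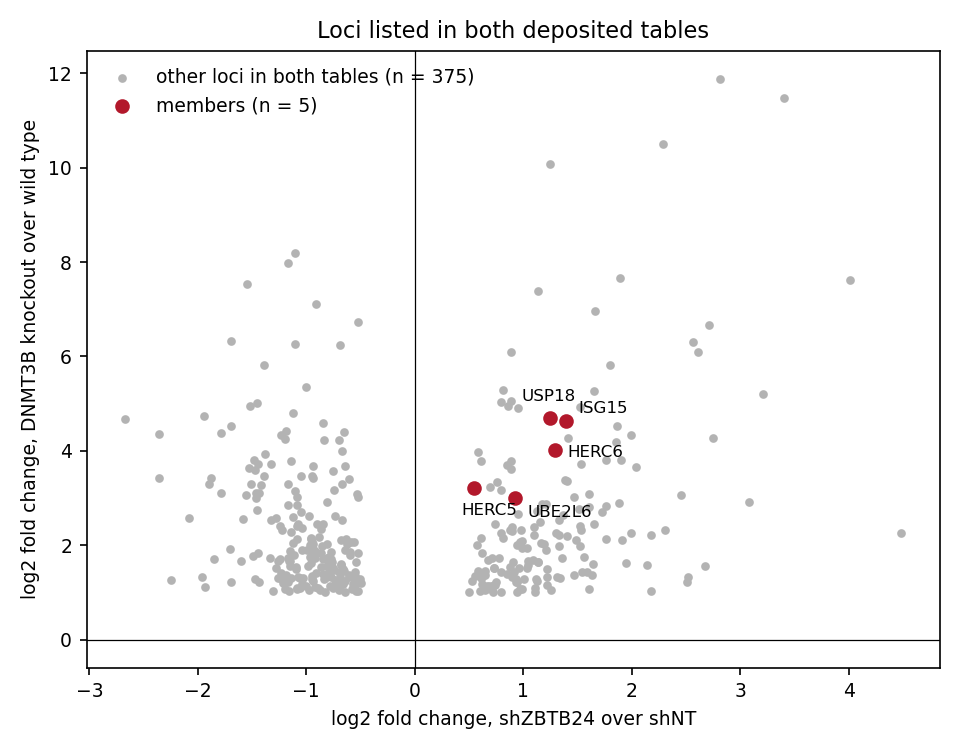
Deposited log2 fold changes of the 380 loci listed in both tables, with the knockdown on the horizontal and the knockout on the vertical axis; red points are the 5 members and grey points the other loci. ISG15 and USP18 lie side by side at 1.39 and 4.63 and at 1.25 and 4.70, and HERC5 is the member lowest on the knockdown axis at 0.55.

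Added FLAG-ZBTB24 gave no listed value for any of the 7 genes. In that comparison 7.21% of all gene symbols were listed in either direction, and 0.57% of the 1754 loci passed the threshold of the deposited Cufflinks test. With 0 members listed, no threshold on p or q could count one. Other interferon genes were listed there. Of 20 interferon-induced effectors and sensors 9 were listed, all with lower values, of which 1 passed and 6 had an unadjusted Cufflinks p under 0.05. Of all 1754 loci, 924 had lower values and 174 had such a p. IFI27, an interferon-induced gene, fell from 101 to 19.3 FPKM per the authors' deposited table (-2.39 on the log2 scale, q = 0.0192). The authors' deposited table gave 5.09 and 1.04 FPKM for IFI44 (q = 0.124) and 4.47 and 0.93 for OAS1 (q = 0.171). Whether the ISG15 system differed from these genes could not be tested, because it had no values.

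Genes that act beside the system were looked up from lists. Of 12 partners of ISG15, among them the ligases TRIM25 and ARIH1 and several ubiquitin proteases, 1 was listed in each comparison and 0 passed. The ubiquitin protease gene USP21 had 7.55 and 4.48 FPKM for the knockdown per the authors' deposited table (q = 0.117). Its relative USP2 had 2.05 and 5.91 FPKM for wild type and knockout (q = 0.893), and 2.25 and 3.28 for FLAG-only and FLAG-ZBTB24 (q = 0.997), per the authors' deposited tables. Of 16 relatives of the members, other E1, E2 and HERC genes and exonucleases like ISG20, 0 were listed for the knockdown or FLAG-ZBTB24 and 1 for the knockout. That was UBE2E2, an E2 gene, with 16.0 and 32.4 FPKM per the authors' deposited table (q = 0.802).

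Upstream of the system, most of 16 interferon and receptor genes were unlisted. IFNL1, a type III interferon, had 0.337 and 1.01 FPKM with shNT and shZBTB24 per the authors' deposited table (q = 0.353), and the receptor gene IFNLR1 had 6.21 and 4.15 (q = 0.246). IFNL2 had 0.203 and 1.89 FPKM for wild type and knockout (q = 0.753), and IFNE 0.459 and 0.78 for FLAG-only and FLAG-ZBTB24 (q = 0.997), per the authors' deposited tables. No interferon gene thus passed the threshold.

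Of 20 interferon signalling factors, 3 rose and 1 fell with the knockdown. Per the authors' deposited table, the transcription factor gene IRF7 rose from 20.6 to 38.1 FPKM (q = 0.0327) and IRF9 from 16.4 to 30.4 (q = 0.0316). SOCS3, an inhibitor of cytokine signalling, fell from 9.20 to 4.55 FPKM per the authors' deposited table (-1.01 on the log2 scale, q = 0.0206). For the knockout 6 of these factors were listed, 0 with a q under 0.05. The authors' deposited table gave 3.25 and 109 FPKM for IRF7 (q = 0.22) and 7.81 and 109 for IRF9 (q = 0.234). With FLAG-ZBTB24, 4 were lower and 1 higher, 0 past the threshold, and IRF7 had 11.7 and 4.75 FPKM per the authors' deposited table (q = 0.447).

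The effectors and sensors, which interferon induces like the members, had 15 loci listed for the knockdown, all higher with a median log2 fold change of 1.87, and 14 of them rose. These were RSAD2, the locus of IFI44 and IFI44L, OAS1, IFI6, IFIT3, IFI27, IFIH1, OAS3, IFIT1, IFIT2, DDX58, MX1, EIF2AK2 and BST2, from 4.01 for RSAD2 to 1.14 for BST2 on the log2 scale of the authors' deposited table. For the knockout 18 loci were listed, with a median of 6.45, and only OAS3 had a q under 0.05 (8.29 and 150 FPKM, q = 0.00636) per the authors' deposited table. The members' medians of 1.25 and 4.01 lay below these medians in both comparisons. Several effector loci were below 1 FPKM in wild type, such as OAS1 (0.0249) and the locus of IFI44 and IFI44L (0.0304), per the authors' deposited table. Among the members UBA7 was too (0.341). The knockout medians thus rest in part on low values.

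**Figure D3:**
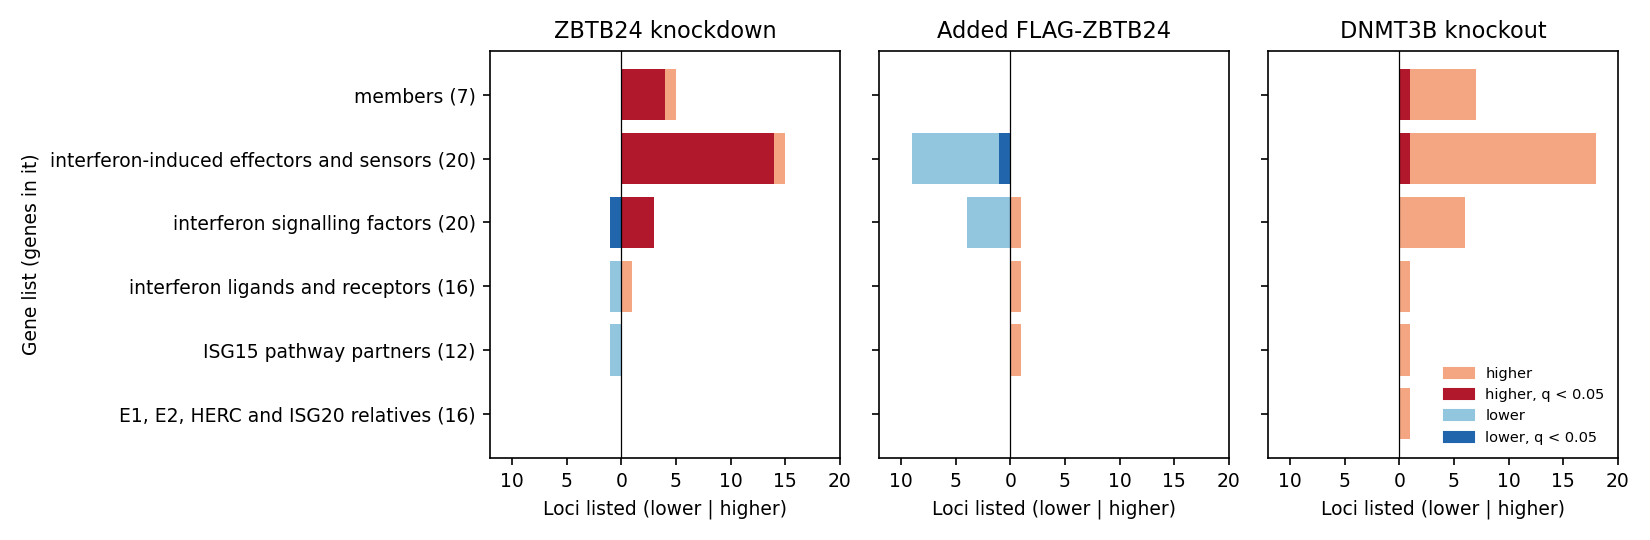
Loci of the 7 members and of 5 gene lists that each expression table holds, counted to the right where higher and to the left where lower, with darker bars for a deposited q under 0.05; the number of genes in a list stands beside its name. The members count 5, 0 and 7 higher loci over the 3 tables and 0 lower ones.

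No ZBTB24 peak lay at or in any of the 7 genes. Peaks counted for a promoter if their midpoint fell within 1000 bp of a start of the gene, and for the body if it fell inside a transcript beyond that distance. Of all gene symbols, 4.09% had a ZBTB24 peak at the promoter and 5.33% in the body. The nearest one to HERC5 lay 30.8 kb downstream of the gene (hg19, chr4:89458138-89458524, score 10.1), and it was also the nearest to HERC6, at 93.9 kb. For ISG15 the distance was 143.0 kb, for UBA7 116.0 kb, for USP18 211.7 kb, for ISG20 348.0 kb and for UBE2L6 1539 kb. The peak score is the authors' own, of a kind not given in the sources used here.

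DNMT3B peaks lay in the bodies of 3 of the 7 genes, UBE2L6, HERC6 and HERC5, and at 0 promoters. Over all gene symbols 23.1% had a DNMT3B peak in the body and 2.59% at the promoter. All 3 genes are 16000 to 70000 bp long, and of the 8532 annotated genes of that length 38.0% had a body peak. USP18 and ISG20 are in the same range of length and had none. In UBE2L6 (hg19, chr11:57319128-57335803, minus strand) 1 peak of 4462 bp, chr11:57317294-57321755, covered the end of the gene with 1 annotated exon and ran 1834 bp past it. The other, chr11:57322716-57323250, was 535 bp wide and intronic, and its midpoint lay 12820 bp from the outer start. In HERC6 (chr4:89299891-89364249, plus strand) the peak at chr4:89316387-89319192 overlapped 2 annotated exons, and its midpoint stood 17898 bp from the start. In HERC5 (chr4:89378268-89427319, plus strand) the peak at chr4:89384246-89385670 also overlapped 2 annotated exons, with its midpoint 6690 bp from the start. Their scores were 3.26 and 3.52 in UBE2L6, 3.20 in HERC6 and 3.09 in HERC5, against a median of 3.39 over the 15909 DNMT3B peaks. Of the 4 peaks only the intronic UBE2L6 one scored above that median. Members with and without a DNMT3B peak both included genes that rose with the knockdown, UBE2L6 and HERC6 among the former and ISG15 and USP18 among the latter. Any relation of these peaks to the changes was not tested.

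**Figure D4:**
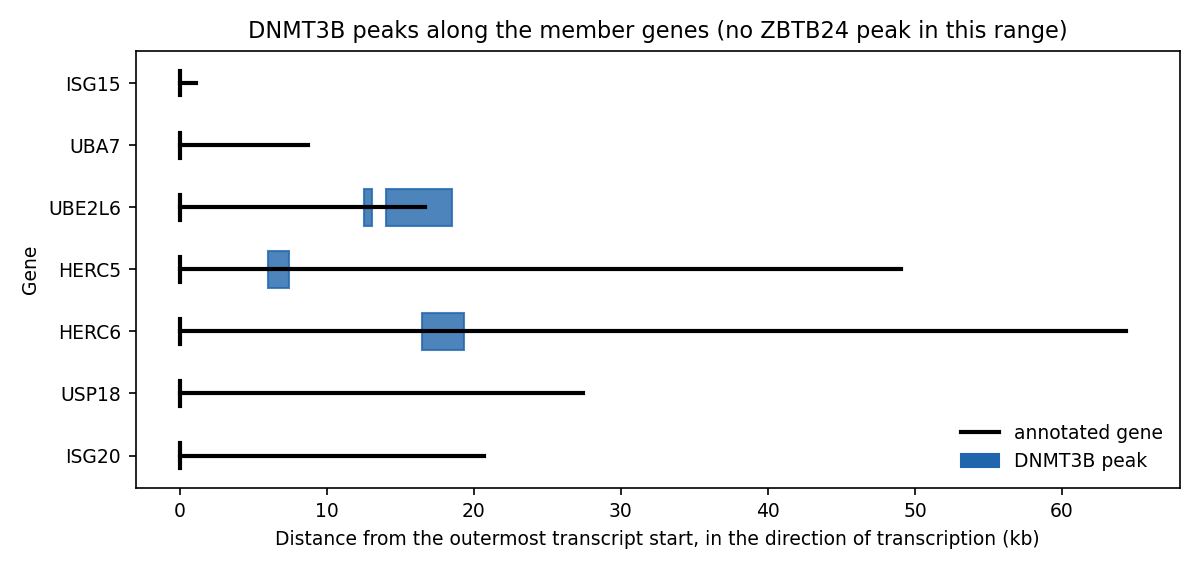
Annotated extent of the 7 genes (black lines) from the outermost start, marked by a vertical bar, with DNMT3B peaks as blue boxes on an axis of distance in kb along the direction of transcription. Boxes stand in UBE2L6, HERC5 and HERC6 only, the nearest to a start at 6690 bp in HERC5, and no ZBTB24 peak falls in the range drawn. DNMT3B peaks outside the genes are not drawn, such as those 22.4 kb downstream of UBA7 and 37.8 kb downstream of ISG15.

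The position of the genes bears on how their reads were counted. ISG15 is the shortest (hg19, chr1:948847-949919, plus strand), with 2 exons and a transcript of 666 bp. HERC6 and HERC5 lie in line on the same strand with 14018 bp between the annotated genes. The interval that the expression tables give for HERC6 runs 13957 bp past its annotated end and stops 61 bp before HERC5, with 1 unnamed assembled transcript in between, so HERC6 values may hold reads from that stretch. USP18 (chr22:18632758-18660162, plus strand) has a near-identical relative, USP41, which the assembled annotation does not name, so reads shared by the pair cannot be assigned with certainty. UBA7 (chr3:49842638-49851391, minus strand) had 13 assembled transcripts without a gene name beside its single annotated one, and ISG20 (chr15:89178868-89199575, plus strand) had 7 annotated transcripts from 2 starts. Among direct neighbours, the authors' deposited table listed 4 under the knockout label, 0 with a q under 0.05. They were FAM212A, 174 bp from UBA7 (0.0657 and 1.04 FPKM, q = 0.788), SERPING1, 29223 bp from UBE2L6 (6.19 and 56.9, q = 0.493), AGRN, 5583 bp from ISG15 (14.7 and 33.2, q = 0.559), and PPM1K, 93907 bp from HERC6 (0.569 and 2.26, q = 0.854), per the authors' deposited table. Apart from HERC5 and HERC6 themselves, 0 of the neighbours were listed for the knockdown.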

How the data were processed

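HISAT2, StringTie, Cufflinks, MACS2 and the hg19 build are named in the submitters' processing notes, with tool versions not given in the sources used here. Expression came as 3 tables in which the authors deposited 1 pooled FPKM value per group and locus, a log2 fold change, and a p-value and q-value for each locus. The peak lists, as deposited, hold merged peaks with 1 score each. RNA libraries were stranded, per the labels' protocols, and whether counting used strand is not stated. Genes were looked up in the comma-separated symbol column, and tables were joined by the assembler's identifiers. Rows of the knockout table with the label DNMT3BKOshZB match no sample given here and were kept apart. These 1112 rows are all lower than wild type, the 2243 rows of the knockout label all higher.

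Counts, ranks, distances and motif matches were computed with Python 3.11.15 and pandas 2.3.3, and peak placement and motif search were tested on simulated data. Groups came from the sample titles. Alternatives were other thresholds, filters, pseudocounts, promoter windows and peak scores. No test across libraries was run, since the tables used here hold pooled values. Named were the members, listed loci of the gene lists with a q under 0.05 (otherwise the 3 largest), the 5 nearest loci of each member and 2 loci on each side of ISG15. FAM212A, SERPING1, AGRN and PPM1K are the nearest neighbours by position. Values of 1 listed signalling factor are not reported here. The members and lists were chosen with earlier results of these data known.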

Additional observations from a re-analysis of the deposited data

How the results depend on the processing

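No paired analysis was possible because the tables used here hold pooled values per group, and for the same reason no replicate could be left out. The count of members past the threshold in the knockdown was 4, and lay between 3 and 5 with a q under 0.10, an unadjusted p under 0.05, a 2-fold minimum, at least 1 FPKM in either group or loci that name 1 gene. The count of 5 came from the unadjusted p, which 1907 of all 1965 listed loci also reached, so it does not set the members apart. For FLAG-ZBTB24 it was 0 in all of these, which was fixed in advance because 0 members were listed. For the knockout it was 1, and 6 at an unadjusted p under 0.05, which 210 of the 2243 loci reached. The other settings run, among them rows of every label, gave 1. Adding 0.1 or 1 FPKM left all 12 fold changes of members positive and lowered them by up to 0.36 and 1.87 on the log2 scale, in both cases most for UBA7. The order in the knockout changed: with 1 FPKM added ISG15 (4.59) lay above USP18 (3.92) and USP18 above UBA7 (3.46). Windows of 500, 2000 and 5000 bp, any overlap of 1 bp and reference transcripts alone gave 3 genes with a DNMT3B body peak and 0 with a ZBTB24 peak. With DNMT3B peaks scored above the list median, 1 gene had a body peak, since 3 of the 4 peaks score lower. Depth is unknown, so no limit of detection can be given for the genes that a table does not list.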
